A study of Mus musculus with 4 samples.

Results

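The 10 genes described here make up the MHC class II presentation pathway as it was named for this account, out of 23284 gene symbols in the deposited count tables. They are Cd74, H2-Aa, H2-Ab1, H2-Eb1, H2-DMa, H2-DMb1, H2-DMb2, H2-Oa, H2-Ob and Ciita, and all 10 were found by symbol in every library. Regulatory T (Treg) cells, the Foxp3-expressing CD4 T cells that restrain immune responses, were sorted from the epididymal fat depot (eWAT, white adipose tissue of the abdomen) and from spleen of C57BL/6 mice aged 12 to 13 months. The mice were of the WT (wild type) or the PPARg-2KR genotype, the latter with a form of the nuclear receptor PPARg in which a pair of lysines that can be acetylated are replaced by arginine. The 4 groups, WT and 2KR in each tissue, had 1 RNA-seq library each, with the spleen cells serving as controls for the fat cells. Below, the spleen pair and the eWAT pair name the 2 libraries of a tissue, and their values are given in the order WT, then 2KR. The labels give neither the sort gate nor the number of mice behind a library, and the 2KR allele is not restricted to T cells by any promoter or Cre that they name.

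MHC class II molecules display peptides from internalised proteins to CD4 T cells and are made mainly by dendritic cells, macrophages and B cells. An alpha and a beta chain pair in the endoplasmic reticulum with the invariant chain (Cd74), H2-DM then exchanges the remnant of that chain for peptide, and H2-O restrains H2-DM. Ciita, the class II transactivator, is recruited to promoters of class II genes by factors bound to their X and Y elements. Mouse T cells, unlike activated human T cells, are known to make little or no class II of their own, so class II transcripts in mouse T cell libraries are commonly read beside the markers of antigen-presenting cells. C57BL/6 mice carry a defective H2-Ea gene, so their H2-Eb1 chain has no partner and the A molecule (H2-Aa with H2-Ab1) is the class II molecule on the cell surface.

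The shared promoter elements are shown first because the members that match both sets of letters searched below did not change alike across the libraries. RefSeq promoter windows on GRCm38.p6, running from 250 bases before to 50 bases after each start, were used for 7 of the 10 members. None was used for Cd74, H2-Ab1 or Ciita. The Y element was searched as TGATTGG and the X element as CTANNAACNNATGATG, on both strands, and the patterns do not overlap. The X letters are those shared by the best aligned 16 bases before Y in 4 of these promoters, H2-Eb1, H2-DMb1, H2-DMb2 and H2-Ob, with N where they differ, so that these 4 match by construction. The stretches below are 64 bases long, in the direction of transcription, and the capitals mark the X match (first, where there is one) and the Y match.
H2-Aa, chr17:34287855-34287918, minus strand: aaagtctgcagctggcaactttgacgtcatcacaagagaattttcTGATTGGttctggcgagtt
H2-Eb1, chr17:34305761-34305824, plus strand: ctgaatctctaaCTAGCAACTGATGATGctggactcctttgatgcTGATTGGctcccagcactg
H2-DMb1, chr17:34153083-34153146, plus strand: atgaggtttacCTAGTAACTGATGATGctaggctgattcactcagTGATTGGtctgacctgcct
H2-DMb2, chr17:34145112-34145175, plus strand: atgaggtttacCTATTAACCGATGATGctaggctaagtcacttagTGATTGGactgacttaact
H2-Oa, chr17:34092289-34092352, plus strand: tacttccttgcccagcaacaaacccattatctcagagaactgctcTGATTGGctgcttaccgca
H2-Ob, chr17:34238801-34238864, plus strand: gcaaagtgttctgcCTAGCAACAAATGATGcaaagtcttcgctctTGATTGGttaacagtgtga
The Y letters were in 6 of the 7 members' windows and in 7.82% of 32851 RefSeq promoter windows of the same length. The X letters were in no member but the 4 that gave them, and in 0.0152% of all windows (5, of which the fifth was that of Frmd4b). Both patterns together were in 4 of the 32851 windows, and those 4 were these members. From the first base of X to the first base of Y the distance was 33 bases in H2-Eb1, 34 in H2-DMb1, 34 in H2-DMb2 and 31 in H2-Ob. H2-DMa's windows held neither pattern. A match is a run of letters, not a measured binding site, and a window without a match may still hold a variant of the element.

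On the genome build of the deposited tables (mm9), 8 members lie within chromosome 17, from H2-Oa at chr17:34229324-34232179 to H2-Eb1 at chr17:34442812-34453619. Between them lie H2-DMa (chr17:34272616-34275480), H2-DMb2 (chr17:34282361-34288040), H2-DMb1 (chr17:34290136-34297174), H2-Ob (chr17:34375850-34382853), H2-Ab1 (chr17:34400172-34406363) and H2-Aa (chr17:34419696-34424716). Ciita is at chr16:10480165-10527657 and Cd74 at chr18:60963503-60972306. H2-DMb1 and H2-DMb2 are near copies, 90.8% identical over 1244 aligned transcript bases. Of the 1305 windows of 100 bases (the read length) along the H2-DMb1 transcript, 676 matched H2-DMb2 with at most 4 mismatches, the number the aligner allowed, so the split of reads between these 2 genes is uncertain. Reads from Brd2 and H2-DMa, from Dexi and Ciita, and from H2-Oa and an antisense RNA on its locus could be mixed where the genes overlap, because the strand setting of the counting is not given in the sources used here.

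The libraries held 8315569 to 15993889 counted reads. Treg identity was visible in all of them: Foxp3, the factor that defines the lineage, stood at 1409 and 1299 CPM (reads scaled to library size with the TMM factors) in the spleen pair and at 1162 and 804 CPM in the eWAT pair. Of 15 T cell and Treg identity genes, 1 (Ctla4) was higher and 8 were lower in eWAT than in spleen at an adjusted p under 0.05. The shares over all genes tested were 33.7% higher and 23.2% lower. Their summed level was 14339 and 12898 CPM in the spleen pair and 11554 and 9023 CPM in the eWAT pair. With 1 library a group, the eWAT and spleen test rests on 2 libraries against 2, its spread includes any effect of genotype, and its p-values describe the spread between these libraries only.

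Class II transcripts were a small part of the spleen libraries and a large part of the eWAT libraries. The 10 members took 0.122% of all reads in WT spleen (95% exact binomial interval 0.120 to 0.124), 0.0868% in 2KR spleen (0.0854 to 0.0883), 0.876% in WT eWAT and 1.88% in 2KR eWAT. Cd74 ranked 154th and 265th among all genes by reads in the spleen pair, 9th in WT eWAT and 1st in 2KR eWAT. Intervals on reads here and below cover counting error only, since no molecular identifiers are named for these libraries.

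Per length, in the authors' FPKM (fragments per kilobase of transcript, scaled to library size), the order of the members differed between the tissues. In WT spleen Cd74 led at 722 FPKM, ahead of H2-DMa at 160 FPKM, and H2-Ab1 (99.6 FPKM) and H2-Aa (99.1 FPKM) followed with overlapping Cufflinks intervals. H2-Oa (43.7 FPKM), H2-Ob (42.3 FPKM) and H2-Eb1 (40.9 FPKM) also overlapped, and H2-DMb2 (19.1 FPKM), H2-DMb1 (7.67 FPKM) and Ciita (1.33 FPKM) came last. In 2KR spleen the same genes led and trailed, with H2-Ob (38.2 FPKM) ahead of H2-Oa (30.9 FPKM) and H2-Eb1 (24.7 FPKM). In both spleen libraries the catalytic helper H2-DMa thus exceeded each classical chain.

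In WT eWAT the order was Cd74 at 4626 FPKM, H2-Ab1 at 1925 FPKM, H2-Aa at 1385 FPKM, H2-Eb1 at 641 FPKM and H2-DMa at 156 FPKM. Then came H2-DMb1 (122 FPKM), H2-DMb2 (66.3 FPKM), H2-Oa (14.7 FPKM), H2-Ob (9.93 FPKM) and Ciita (3.78 FPKM). In 2KR eWAT Cd74 reached 10278 FPKM and H2-Ab1 4194 FPKM, H2-DMa (269 FPKM) and H2-DMb1 (244 FPKM) had touching intervals, and H2-Ob (34.9 FPKM) stood above H2-Oa (25.8 FPKM). The classical chains thus stood above all H2-DM and H2-O genes in both eWAT libraries. These intervals are the authors' and describe single libraries.

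**Figure D1:**
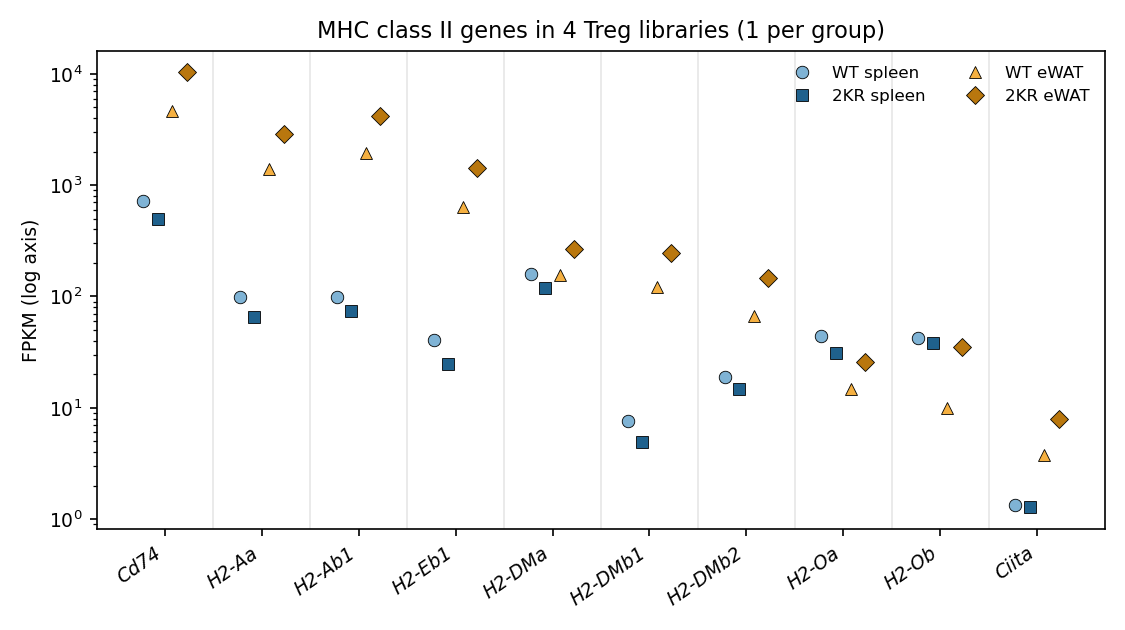
Authors' FPKM (log axis) of the 10 MHC class II genes in the 4 libraries, 1 point per library. Cd74, the A and E chains, H2-DMb1, H2-DMb2 and Ciita were higher in both eWAT libraries than in both spleen libraries, H2-Oa and H2-Ob were lower in both, and for H2-DMa the tissues overlapped.

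Between the tissues, 7 of the 10 members rose and 2 fell in eWAT against spleen, and 1 did not pass the test (edgeR's quasi-likelihood test over 16488 genes, Benjamini-Hochberg adjusted p under 0.05). Over all genes tested, 33.7% were called higher and 23.2% lower, so calls were common. All 10 members passed the filter on low counts. The median log2 difference was 2.68 over the members and 0.11 over all genes tested. In these bulk libraries a change in the number of cells of one kind and a change in RNA per cell cannot be told apart.

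Cd74, the invariant chain that chaperones class II chains, stood at 742 and 502 CPM in the spleen pair and 4510 and 8305 CPM in the eWAT pair. Both eWAT libraries lay above both spleen libraries, and the log2 difference was 3.36 ± 0.40 (SE; edgeR adjusted p = 2.06e-05). The 2 annotated Cd74 transcripts kept their proportions while the gene changed. The longer transcript, whose extra exon encodes a thyroglobulin-like domain, made 16.5% and 17.6% of Cd74 FPKM in the spleen pair and 16.7% and 15.9% in the eWAT pair.

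The classical chains had, with H2-DMb1, the largest tissue differences of the 10 members. H2-Ab1, the beta chain of the A molecule, stood at 108 and 78.3 CPM in the spleen pair and 1992 and 3534 CPM in the eWAT pair, a log2 difference of 4.89 ± 0.37 (SE; edgeR adjusted p = 3.61e-07). H2-Aa, the alpha chain that pairs with it, stood at 97.1 and 61.7 CPM in the spleen pair and 1288 and 2201 CPM in the eWAT pair, with a log2 difference of 4.46 ± 0.36 (SE; edgeR adjusted p = 5.64e-07). The tissues did not overlap for either chain.

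H2-Eb1, the E beta chain without a partner in this strain, stood at 66.4 and 38.5 CPM in the spleen pair and 972 and 1787 CPM in the eWAT pair. Its log2 difference was 4.72 ± 0.38 (SE; edgeR adjusted p = 5.43e-07), near those of the A chains. H2-Ea-ps, the defective alpha gene, had 7 and 6 reads in the spleen pair and 9 and 13 reads in the eWAT pair.

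**Figure D2:**
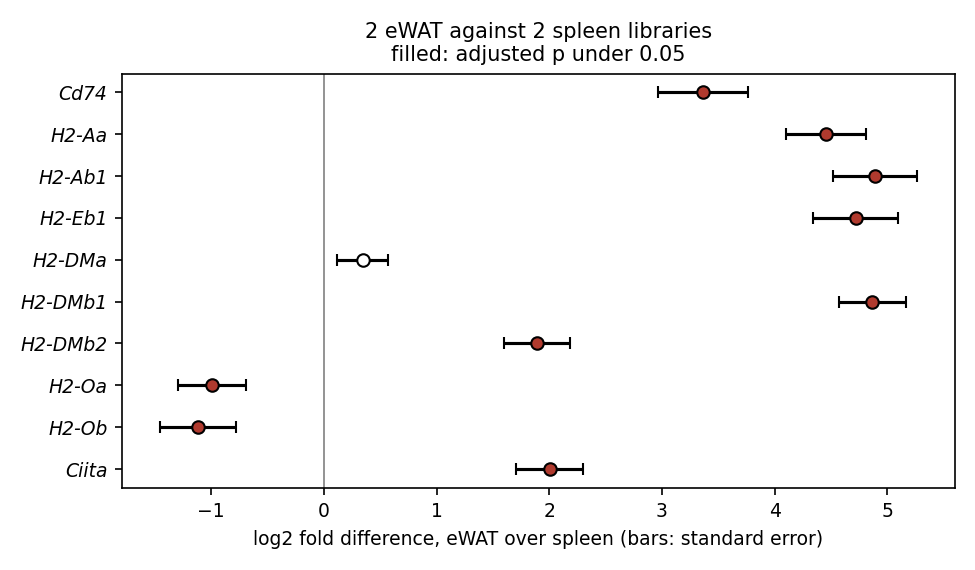
Log2 difference between the 2 eWAT and the 2 spleen libraries for the 10 members, with bars of 1 standard error derived from the edgeR F statistic. Filled points had an adjusted p under 0.05. Values run from -1.12 for H2-Ob to 4.89 for H2-Ab1, and H2-DMa at 0.34 was the only member that did not pass.

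The genes of the peptide exchange factor H2-DM did not move together. H2-DMb1, a beta chain of H2-DM, had 72 and 55 reads in the spleen pair and 1146 and 1605 reads in the eWAT pair. That was 5.82 and 3.61 CPM against 106 and 167 CPM, with a log2 difference of 4.87 ± 0.30 (SE; edgeR adjusted p = 4.63e-08). H2-DMb2, the other beta chain, stood at 10.2 and 7.28 CPM in the spleen pair and 25.4 and 39.3 CPM in the eWAT pair, with a log2 difference of 1.89 ± 0.29 (SE; edgeR adjusted p = 2.21e-04). Both rose, and both promoters carry the X and Y letters shown above. A sum removes the uncertain split between the copies, but not any loss of reads that matched both. Summed, the beta genes stood at 16.003 and 10.9 CPM in the spleen pair and 131 and 207 CPM in the eWAT pair, a log2 difference of 3.66 ± 0.27 (SE; edgeR adjusted p = 2.55e-07).

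H2-DMa, the alpha chain both beta chains need, stood at 122 and 88.4 CPM in the spleen pair and 109 and 158 CPM in the eWAT pair. The tissues overlapped, and the log2 difference of 0.34 ± 0.23 (SE) did not pass (edgeR adjusted p = 0.205). Without the WT eWAT library it was called higher, at 0.49 (adjusted p = 0.0140), and without the 2KR eWAT library it was -0.01 (adjusted p = 0.965). In FPKM, H2-DMa therefore made 85.7% and 86.0% of all H2-DM transcripts in the spleen pair and 45.2% and 40.7% in the eWAT pair.

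The genes of H2-O, the modulator of H2-DM known chiefly from B cells and some dendritic cells, went the other way. H2-Oa, its alpha chain, stood at 27.9 and 19.03 CPM in the spleen pair and 9.53 and 14.1 CPM in the eWAT pair, a log2 difference of -0.99 ± 0.30 (SE; edgeR adjusted p = 0.0127). H2-Ob, its beta chain, stood at 119 and 105 CPM in the spleen pair and 26.4 and 76.8 CPM in the eWAT pair, a log2 difference of -1.12 ± 0.34 (SE; edgeR adjusted p = 0.0125). Both fell, and the eWAT libraries lay below both spleen libraries, but both calls were weak. With total counts in place of TMM scaling neither passed (adjusted p = 0.0625 for H2-Oa and 0.0657 for H2-Ob), and without the WT spleen library H2-Oa did not pass (adjusted p = 0.156). H2-Ob also missed the threshold with DESeq2 (adjusted p = 0.127), with limma on FPKM (0.0921) and with robust dispersion (0.137).

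The size of the H2-Ob difference depended on the eWAT library used: it was -0.64 without WT eWAT and -2.15 without 2KR eWAT. Within WT, eWAT over spleen was -2.16 on the log2 scale (95% counting interval -2.36 to -1.99), and within 2KR it was -0.45 (-0.58 to -0.32). H2-Ob carries X and Y letters like those of H2-Eb1, H2-DMb1 and H2-DMb2, and was the only one of these 4 that fell.

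Ciita, the transactivator, rose with 7.76 and 7.54 CPM in the spleen pair and 22.9 and 38.6 CPM in the eWAT pair. The log2 difference was 2.00 ± 0.30 (SE; edgeR adjusted p = 1.59e-04) and the tissues did not overlap. Ciita is known to be transcribed from promoters in a fixed order along the gene, of which the most upstream is used mainly by dendritic cells and macrophages, the middle one by B cells and the most downstream one by cells responding to interferon gamma. The 3 annotated transcripts differ in their starts, at 10480165, 10488271 and 10489874 on chromosome 16.

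The transcript with the most upstream start was estimated at 0.129 FPKM in WT spleen, at close to 0 in 2KR spleen (Cufflinks interval 0 to 0.0234), at 2.40 FPKM in WT eWAT (1.93 to 2.86) and at 4.11 FPKM in 2KR eWAT (3.37 to 4.84). The transcript with the middle start was at 0.907 and 0.749 FPKM in the spleen pair and at 0.542 and 0.742 FPKM in the eWAT pair, with overlapping intervals in all 4 libraries. The transcript with the most downstream start was at 0.297 and 0.523 FPKM in the spleen pair, 0.838 FPKM in WT eWAT (0.513 to 1.16) and 3.07 FPKM in 2KR eWAT (2.37 to 3.76). The middle start thus made 68.0% and 58.9% of Ciita FPKM in the spleen pair, against 14.3% and 9.38% in the eWAT pair. These estimates rest on 96 to 370 gene reads per library and were not tested.

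**Figure D3:**
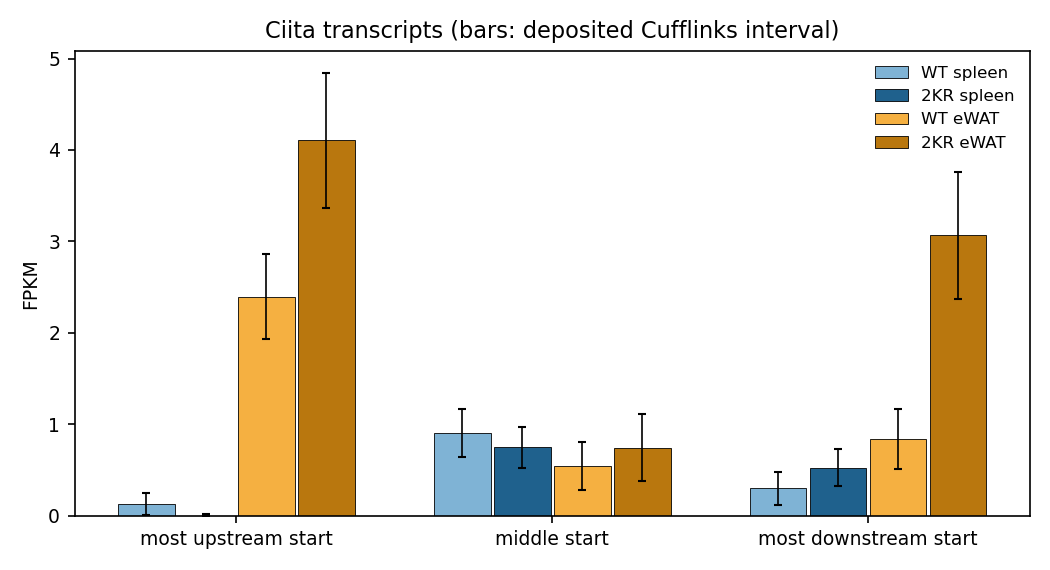
Authors' FPKM of the 3 Ciita transcripts, ordered by their start along the gene, in the 4 libraries; error bars are the deposited Cufflinks intervals. The transcript with the most upstream start was at 2.40 and 4.11 FPKM in the eWAT pair and at 0.129 FPKM or less in spleen, while the middle one overlapped in all libraries.

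Several proportions among the members separated the tissues, among them Cd74 to the chains, H2-O to H2-DM and H2-DM to the chains, while others did not. The ratio of Cd74 to the 3 classical chains in FPKM was 3.02 and 3.07 in the spleen pair and 1.17 and 1.21 in the eWAT pair. H2-O made 31.5% and 33.1% of the sum of H2-O and H2-DM in FPKM in the spleen pair, and 6.69% and 8.42% in the eWAT pair. In reads, which favour the long H2-Ob transcript, the same share was 51.5% (95% exact binomial interval 49.8 to 53.2) and 55.5% in the spleen pair, and 13.0% and 19.97% in the eWAT pair. H2-Oa made 50.8% and 44.8% of H2-O FPKM in the spleen pair and 59.7% and 42.5% in the eWAT pair, with a wider gap between the eWAT genotypes than between the tissues. The ratio of H2-Eb1 to H2-Ab1 did not separate the tissues in 2KR, at 0.411 and 0.337 in the spleen pair and 0.333 and 0.342 in the eWAT pair. H2-DM transcripts were 0.781 and 0.856 of the classical chains in the spleen pair and 0.0870 and 0.0777 in the eWAT pair. With 1 library a group these proportions have no test between groups.

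Between the genotypes, all 10 members were higher in 2KR than in WT eWAT beyond counting error. In spleen, 9 were lower in 2KR than in WT beyond counting error. The share of all genes beyond counting error was not computed, so these counts have no baseline. No member passed a test across both tissues. That test carried a tissue term and 1 residual degree of freedom. It called 0 of the 10 members (edgeR; 1 member, H2-Ob, had an unadjusted p under 0.05). Over all 16488 genes it called 0.0% higher and 0.0667% lower, with 777 at an unadjusted p under 0.05. H2-Ob had the largest member difference, 0.65 ± 0.27 (SE; edgeR adjusted p = 0.966), and the other 9 had an adjusted p of 0.99993. DESeq2 also called 0 members, while limma on FPKM called H2-Ob higher at 0.79 (adjusted p = 0.00223). The fitted difference is an average over the tissues, and the ratios within each tissue follow.

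Within eWAT the 2KR over WT log2 ratio was 0.88 for Cd74 (95% counting interval 0.86 to 0.90), 0.77 for H2-Aa, 0.83 for H2-Ab1 and 0.88 for H2-Eb1. It was 0.53 for H2-DMa, 0.66 for H2-DMb1, 0.62 for H2-DMb2, 0.55 for H2-Oa and 0.75 for Ciita. H2-Ob stood apart at 1.54 (1.34 to 1.75), or 2.90-fold, and was the only member past 2-fold. That count depended on the scaling: 5 members were past 2-fold with total counts and 7 in the authors' FPKM. Of 12364 genes with at least 5 CPM in 1 library, 5.52% were 2-fold higher and 2.32% were 2-fold lower in this contrast. The median was 0.76 over the members and -0.07 over all these genes.

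Within spleen all 10 members had ratios below 0. The log2 ratio was -0.56 for Cd74 (95% counting interval -0.61 to -0.52), -0.65 for H2-Aa, -0.47 for H2-Ab1 and -0.78 for H2-Eb1. It was -0.46 for H2-DMa, -0.67 for H2-DMb1, -0.47 for H2-DMb2, -0.55 for H2-Oa and -0.18 for H2-Ob. Ciita at -0.04 (-0.44 to 0.37) did not differ beyond counting error, and was at 0.02 with DESeq2 size factors. No member was 2-fold lower, against 5.81% of all genes, and none was 2-fold higher, against 1.04%. The median was -0.51 over the members and -0.07 over all genes.

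**Figure D4:**
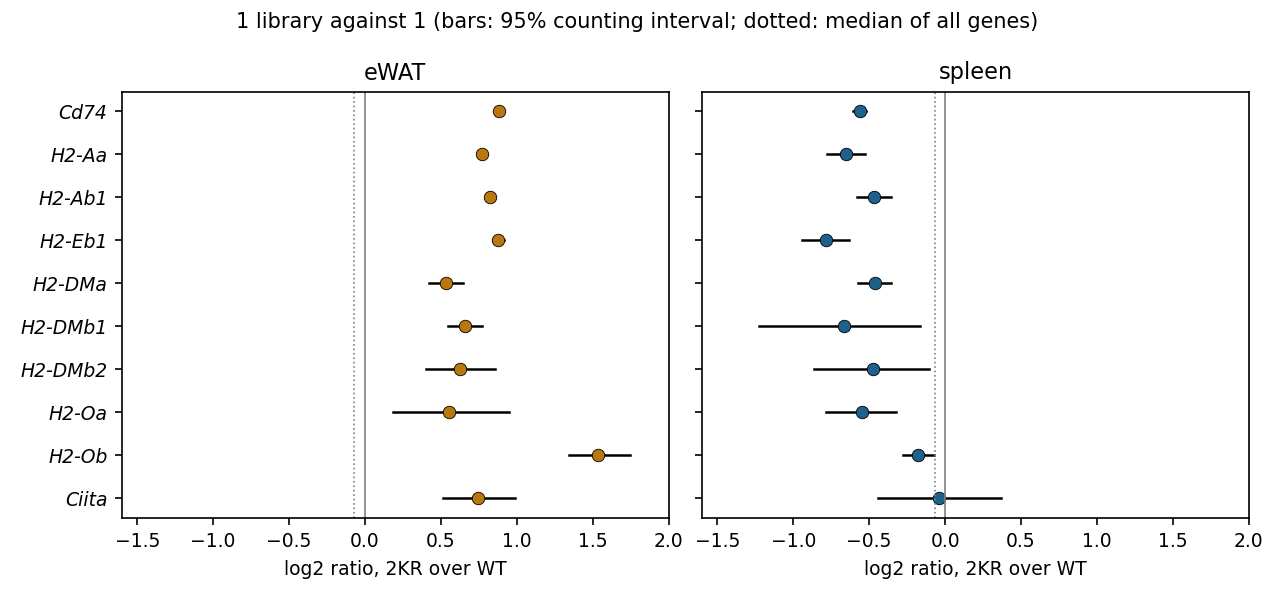
Log2 ratio of 2KR to WT for the 10 members in eWAT and in spleen, 1 library against 1, with 95% counting intervals; the dotted line is the median of all genes. All members lie right of 0 in eWAT, between 0.53 and 1.54, and left of 0 in spleen, between -0.78 and -0.04.

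The same values give the tissue contrast within each genotype, since the 4 libraries are shared. Cd74 was 6.08-fold higher in eWAT than in spleen within WT and 16.5-fold higher within 2KR. In each genotype 7 members were at least 2-fold higher in eWAT, against 21.0% of all genes in WT and 23.4% in 2KR. In WT, H2-Oa and H2-Ob were at least 2-fold lower (11.9% of all genes), and in 2KR no member was (14.2% of all genes).

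Macrophage and dendritic cell markers moved with the class II genes in the tissue comparison, and B cell markers were mixed. Of 20 macrophage and monocyte markers, 18 rose in eWAT, 0 fell and 2 did not pass, with a median log2 difference of 2.44. Lyz2, lysozyme of myeloid cells, stood at 19.8 and 24.2 CPM in the spleen pair and 1017 and 1215 CPM in the eWAT pair. The summed level of the list was 323 and 246 CPM in the spleen pair and 1686 and 2224 CPM in the eWAT pair. Of its defining markers, Csf1r (the receptor for macrophage colony-stimulating factor) stood at 27.6 and 19.9 CPM in the spleen pair and 52.5 and 96.8 CPM in the eWAT pair. Fcgr1 had 0 reads in 2KR spleen and was the only macrophage marker at 0 in any library.

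Of 15 dendritic cell markers, 14 could be tested and all 14 rose, with a median log2 difference of 5.03. Their summed level was 20.5 and 11.7 CPM in the spleen pair and 635 and 984 CPM in the eWAT pair. Cd209a and Mgl2, lectins of some dendritic cells and macrophages, stood at 278 and 126 CPM in WT eWAT and at 410 and 297 CPM in 2KR eWAT, against 1.13 CPM or less in spleen. Flt3, a growth factor receptor of dendritic cells, stood at 0.970 and 0.984 CPM in the spleen pair and at 15.6 and 44.8 CPM in the eWAT pair. Ccl22 had 0 reads in WT spleen and Clec10a in 2KR spleen.

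Of 19 B cell markers reported here, 9 rose, 5 fell and 5 did not pass, with a median log2 difference of 1.23 in the fit. All genes tested had 33.7% called higher and 23.2% lower. Within WT alone the median eWAT over spleen log2 ratio was 0.12, with 9 of 17 above 0. The defining markers were present in all libraries. Ms4a1, which encodes CD20, stood at 13.2 and 10.96 CPM in the spleen pair and 19.4 and 44.2 CPM in the eWAT pair, a log2 difference of 1.40 ± 0.33 (SE; edgeR adjusted p = 0.00361). Cd79a, a signalling chain of the B cell receptor, stood at 10.02 and 10.7 CPM in the spleen pair and 20.8 and 34.4 CPM in the eWAT pair, a log2 difference of 1.41 ± 0.29 (SE; edgeR adjusted p = 0.00154). The summed level of the list was 481 and 416 CPM in the spleen pair and 255 and 372 CPM in the eWAT pair. Cxcr5, which follicular T cells also express, made 238 CPM of it in WT spleen. Without Cxcr5 the sum was 243 and 220.2 CPM in the spleen pair and 238 and 350.5 CPM in the eWAT pair. Markers of cells that make little class II moved as well: 7 of 7 plasma cell markers, 9 of 10 endothelial markers and 10 of 10 fibroblast and mesothelial markers rose in eWAT. The part of any of these cell types in the class II differences was not tested.

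Between the genotypes the medians of the same 3 lists also had opposite signs in the tissues. In eWAT the median 2KR over WT log2 ratio was 0.55 over the macrophage list, 0.74 over the dendritic cell list and 0.72 over the B cell list, beside 0.76 over the class II genes. In spleen these medians were -0.76, -0.85, -0.26 and -0.51. Of the markers with at least 5 CPM in 1 library, 16 of 17 macrophage, 10 of 14 dendritic cell and 16 of 17 B cell markers were above 0 in eWAT. In spleen 4 of 17, 3 of 14 and 6 of 17 were above 0. Lists of other cells showed such signs too: plasma cell markers had medians of 0.44 in eWAT (7 of 7 above 0) and -0.65 in spleen (1 of 7), and endothelial markers 0.73 (9 of 10) and -0.09 (3 of 10). The fibroblast and mesothelial markers had medians of -1.11 in eWAT and -0.77 in spleen. The T cell identity genes had medians of -0.37 in eWAT and -0.15 in spleen, with 1 of 15 above 0 in each tissue.

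**Figure D5:**
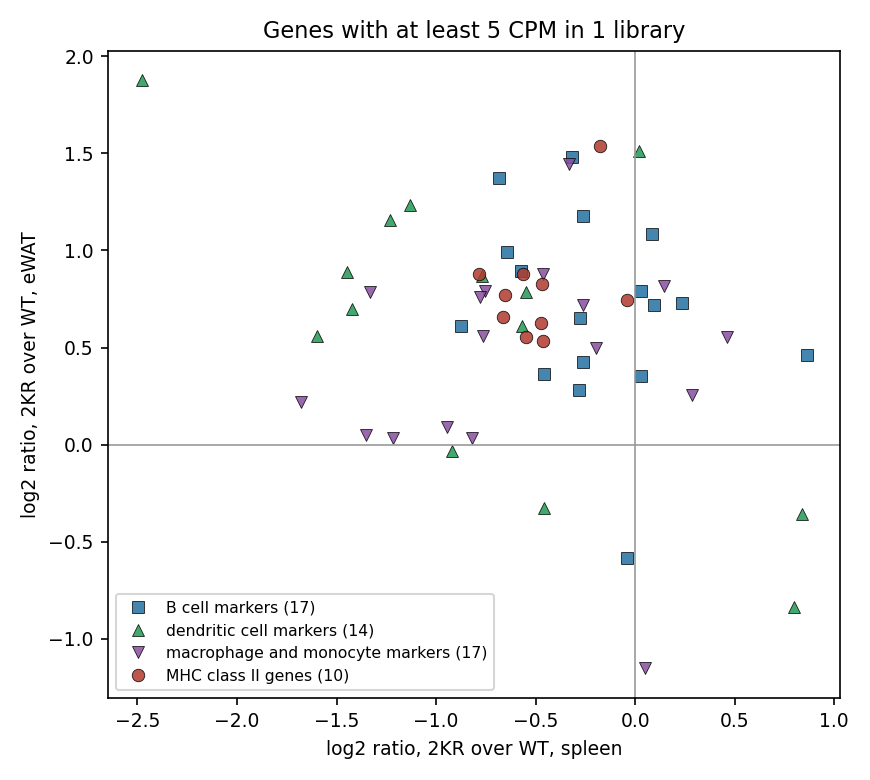
Log2 ratio of 2KR to WT in spleen (horizontal) and in eWAT (vertical) for the class II genes and 3 marker lists, 1 point per gene with at least 5 CPM in 1 library. The 10 class II genes lie above 0 in eWAT and below 0 in spleen, among most of the markers; H2-Ob is the highest of them in eWAT, at 1.54.

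Class II levels were also set against the defining markers and against the whole lists. For each CPM of Csf1r, Emr1 and C1qa together, the libraries held 14.3 and 14.25 CPM of Cd74 in the spleen pair and 44.8 and 52.6 CPM in the eWAT pair. For each CPM of Flt3, Zbtb46 and Itgax they held 68.5 and 66.5 CPM of Cd74 in the spleen pair and 109 and 91.6 CPM of Cd74 in the eWAT pair. For each CPM of Ms4a1 and Cd79a they held 31.99 and 23.2 CPM in the spleen pair and 112 and 106 CPM in the eWAT pair. In eWAT, 2KR over WT was 1.84-fold for Cd74 and 1.57-fold, 2.19-fold and 1.95-fold for the macrophage, dendritic cell and B cell defining sums.

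The tissue direction depended on the markers used for dendritic cells. For each CPM of the whole dendritic cell list, Cd74, H2-Aa, H2-Ab1 and H2-Eb1 together stood at 49.4 and 57.95 CPM in the spleen pair and 13.8 and 16.1 CPM in the eWAT pair, the reverse of the direction with the 3 defining markers. Per CPM of the whole macrophage list they stood at 3.14 and 2.77 CPM in the spleen pair and 5.197 and 7.12 CPM in the eWAT pair. Per CPM of the whole B cell list they stood at 2.11 and 1.63 CPM in the spleen pair and 34.3 and 42.6 CPM in the eWAT pair. Of the macrophage sum in the spleen pair, 323 and 246 CPM, Cybb alone made 166 and 138 CPM. In the eWAT pair Cybb stood at 116 and 191 CPM, and it did not pass between the tissues (edgeR adjusted p = 0.969). The direction on the macrophage scale may therefore depend on Cybb, and ratios without it were not computed.

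H2-Ob was lower in eWAT than in spleen on this scale too. For each CPM of the B cell defining markers the libraries held 5.11 and 4.85 CPM of H2-Ob in the spleen pair but 0.655 and 0.977 CPM in the eWAT pair. Per CPM of the whole B cell list, of which 5 genes fell, the gap was smaller, with 0.246 and 0.252 CPM of H2-Ob in the spleen pair and 0.103 and 0.207 CPM in the eWAT pair. The smaller gap depends on Cxcr5, which made 238 and 196 CPM of that list in the spleen pair. In the eWAT pair Cxcr5 made 17.5 and 21.3 CPM, and the H2-Ob ratio was not computed without it. On the scale of the defining markers H2-DMa was at 5.25 and 4.08 in the spleen pair and at 2.71 and 2.01 in the eWAT pair. Ciita stood at 0.334 and 0.348 in the spleen pair and at 0.570 and 0.491 in the eWAT pair. These ratios are descriptions, since a marker's RNA per cell may differ between tissues.

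Other genes of the pathway did not follow the members as a group. Of 21 in the files 20 were tested, and 7 rose, 5 fell and 8 did not pass, with a median log2 difference of 0.03. As shares these counts are near those of all genes tested. Among those that rose, Ctsh, a lysosomal cysteine protease, went from 9.94 and 10.2 CPM in the spleen pair to 266 and 234 CPM in the eWAT pair (log2 difference 4.63 ± 0.22 SE; edgeR adjusted p = 5.18e-09). March1, a ubiquitin ligase that removes class II from the surface, went from 1.62 and 0.984 CPM to 11.9 and 27.6 CPM (3.93 ± 0.50 SE; edgeR adjusted p = 3.73e-05). March8, its relative, rose by 2.33, H2-Eb2, a second E beta gene, by 2.33, Ifi30, a lysosomal thiol reductase, by 1.69, Ctsl by 1.49 and Lgmn by 1.33 on the log2 scale.

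The 5 that fell included genes that serve the class II promoters. Ctss, the protease known for degrading the invariant chain in antigen-presenting cells, stood at 674 and 562 CPM in the spleen pair and 247 and 382 CPM in the eWAT pair, a log2 difference of -0.98 ± 0.26 (SE; edgeR adjusted p = 0.00621). All 3 subunits of the RFX complex, which binds the X element, fell: Rfx5 by 1.01, Rfxap by 1.22 and Rfxank by 0.64 on the log2 scale. Nfya, Nfyb and Nfyc, which bind the Y element, stood at -0.49, -0.28 and -0.45 and did not pass (edgeR adjusted p = 0.146, 0.217 and 0.0755). Mif, a ligand of the CD74 protein, fell by 1.19.

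Among the 11 regulators of Ciita reported here, 5 rose and 6 did not pass, where 33.7% of all genes tested were called higher. Ifngr1, a chain of the interferon gamma receptor, rose from 748 and 780 CPM to 3147 and 2811 CPM (1.96 ± 0.29 SE; edgeR adjusted p = 1.34e-04). The other 4 that rose, Sfpi1 (PU.1), Irf4, Jak2 and Prdm1, had log2 differences of 3.60, 1.25, 1.13 and 0.997, and are named here because they passed. Jak1 and Irf1, abundant in all libraries, were at -0.37 and 0.14 and did not pass (edgeR adjusted p = 0.232 and 0.675). Sfpi1, a factor of myeloid and B cells, stood at 2.26 and 2.03 CPM in the spleen pair and 24.8 and 27.5 CPM in the eWAT pair.

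Among 8 costimulatory ligands of antigen-presenting cells, 5 rose, 1 fell and 2 did not pass. Of all genes tested, 33.7% were called higher and 23.2% lower. Cd86, a ligand of CD28 and CTLA4, fell from 156 and 140 CPM in the spleen pair to 36.7 and 43.9 CPM in the eWAT pair (log2 difference -1.88 ± 0.20 SE; edgeR adjusted p = 7.26e-06). Tnfsf9 rose from 15.03 and 15.2 CPM to 86.9 and 122 CPM (2.79 ± 0.22 SE; edgeR adjusted p = 5.43e-07), and Cd40, Cd80, Cd274 and Icosl rose by 2.53, 1.46, 0.88 and 0.60 on the log2 scale. No gene of these 3 lists was called between the genotypes.

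The genes nearest to the members' mean profile over the 4 libraries were sought among 10286 genes with at least 10 CPM and 100 reads in 1 library, by Euclidean distance between centred log2 CPM. The nearest were Pak7 (distance 0.118), Apbb2 (0.142), Mpdz (0.151), Muc6 (0.163), Rab31 (0.165), Muc4 (0.177), Siglecg (0.194), Il13ra1 (0.198), Ccdc88a (0.202) and Il17re (0.208). Il13ra1, a chain of the IL-13 receptor, stood at 12.4 and 8.20 CPM in the spleen pair and 39.1 and 80.9 CPM in the eWAT pair. The nearest marker of the macrophage list was Cd68 (0.240), of the B cell list Fcrla (0.368, then Btk at 0.408), of the plasma cell list Derl3 (0.618) and of the dendritic cell list Xcr1 (0.927). The members themselves lay from 0.555 (H2-DMb2) and 0.558 (Ciita) to 3.38 (H2-Oa) and 3.74 (H2-Ob) from their own mean profile. With 4 libraries such likeness is a description only.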

How the data were processed

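Poly-A RNA-seq libraries of sorted Treg cells, 1 per group, were deposited as read counts per gene symbol and as FPKM per gene and per transcript. Per the deposited notes, the authors aligned 100-base reads to mm9 with TopHat 2.1.0 (up to 4 mismatches and 10 multiple hits) and computed FPKM with Cufflinks 2.0.2; the submitters' processing notes also name bcl2fastq 1.8.4, DESeq and mm8. How reads were counted, on which strand and with which multiple hits, was not given in the sources used here. The authors' transcript tables also hold a coverage signal, which enters no result.

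The deposited counts were tested with edgeR 4.0.16 (TMM scaling, genes filtered by filterByExpr, quasi-likelihood test, Benjamini-Hochberg adjustment over 16488 genes). The test had first been run on simulated counts with the same dispersion for every gene and few changed genes. That check does not cover the spread between these libraries. The tissue test set 2 eWAT against 2 spleen libraries, and the genotype test added a tissue term. Standard errors (SE) given with either test are the absolute log2 difference divided by the square root of its F statistic. Ratios of single libraries used CPM with a prior count of 2 and exact conditional binomial 95% intervals. The replicates have no within-group partner, so no SD is given. DESeq2 1.42.0, limma 3.58.1 (log2 of FPKM plus a pseudocount of 1), total count scaling, no filter, other terms and leaving out each library were alternatives. Named genes were all members, the defining markers and up to 4 highest genes of each list, pathway genes past the threshold and the genes nearest in profile. The members, lists and tests were chosen with earlier results of these data known. Of the markers, Ly6g had no matching symbol. RefSeq promoters were matched by symbol and used for 7 members, and entries on chromosome 18, where Cd74 lies, were left out. Some genes of the marker and regulator lists are not reported here, and list counts and sums are without them.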

Additional observations from a re-analysis of the deposited data

Results flagged for a closer look

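For 9 of the 10 members the 2KR over WT ratio lay above 0 in eWAT and below 0 in spleen. Their counting intervals were off 0 in both tissues. The share of all genes that meet this rule was not computed, and the medians of several marker lists had such opposite signs too. With 1 library a group the difference between the tissues was not tested. The eWAT ratio minus the spleen ratio, on the log2 scale, was 1.44 for Cd74, 1.42 for H2-Aa, 1.29 for H2-Ab1 and 1.66 for H2-Eb1. It was 0.996 for H2-DMa, 1.32 for H2-DMb1, 1.10 for H2-DMb2, 1.10 for H2-Oa and 1.71 for H2-Ob. For H2-DMa the tissue ratio also changed sign between the genotypes, from -0.16 in WT to 0.83 in 2KR, a WT minus 2KR difference of -0.996.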

How the results depend on the processing

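No paired analysis was possible because each group has 1 library and the replicate numbers only name it. The count of 7 members higher in eWAT was 6 to 8 in every alternative run, and 7 to 8 with each library left out. The count of 2 lower was 0 with total count scaling, 1 with DESeq2, limma on FPKM or robust dispersion (the last added after seeing the data), and 1 to 2 with each library left out. With each library left out, H2-DMa ranged from -0.011 (without 2KR eWAT) to 0.54. Between the genotypes limma on FPKM called 1 member higher. In that test H2-DMa was at -0.0032 without a filter on low counts, and H2-Oa was at 0.12 with total count scaling, 0.0061 with DESeq2 and 0.14 with limma. Total count scaling moved the median 2KR over WT log2 ratio of all genes in eWAT by 0.25. The members' median exceeded that of all genes by 0.83 with either scaling, which is no check, since scaling shifts all genes nearly alike. In that contrast the count of members at least 2-fold higher went from 1 to 5 with total count scaling and 7 with FPKM. The macrophage count went from 1 to 6 with both, the dendritic cell count from 4 to 7 with both, and the B cell count from 4 to 7 and 9; in spleen the B cell count went from 0 to 1 with FPKM. The H2-O share of H2-O and H2-DM in reads was 51.5% (WT) and 55.5% (2KR) in spleen, 13.0% (WT) and 19.97% (2KR) in eWAT. Where leaving out a library left 1 in a tissue, its spread was taken from the other tissue. The cause of these shifts was not tested. Depth limits H2-DMb1 in spleen, at 72 and 55 reads.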
